A study of Mus musculus with 26 samples.

Results

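The immediate early activity genes examined here were chosen by name: Fos, Fosb, Junb, Egr1, Egr2, Egr4, Arc, Npas4, Nr4a1 and Ier2. All probe sets of these 10 genes were taken, 11 of the 45101 on each Affymetrix mouse array, and the 10 genes were among 14941 tested. Expression had been measured on 26 arrays of entorhinal cortex and hippocampus, 13 from each region, 4 weeks after a lentivirus was given to the entorhinal cortex of aged mice. In each region, 4 arrays came from mice with an amyloid precursor protein (APP) transgene that received virus encoding BDNF (brain-derived neurotrophic factor, a secreted growth factor that acts on neurons through the receptor TrkB). Another 4 came from APP transgenic mice given virus encoding green fluorescent protein (GFP), 2 from non-transgenic mice given the GFP virus, and 3 from non-transgenic mice with a sham lesion. No non-transgenic mouse received BDNF and no transgenic mouse was a sham control. Not given in the sources used here are the strain, the transgene's promoter, the cells that took up the virus, the age in months and the handling before dissection.

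Immediate early genes are transcribed within minutes of synaptic activity or growth factor stimulation, without new protein synthesis, and their messenger RNAs decay quickly. Calcium entry and kinase cascades, including the one downstream of TrkB, phosphorylate factors already bound to their promoters, among them CREB and the serum response factor with its Elk partners. Most of the 10 genes encode transcription factors that in turn act on later genes, whereas Arc encodes a protein that works at synapses. In hippocampus and cortex their messenger RNAs are widely used as a mark of recently active neurons, so that their level reflects the period just before tissue was taken.

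CREB binds the core letters TGACG, and the serum response factor binds the CArG box. The 250 bases upstream of the annotated start are therefore shown for 3 members, with a 30-base stretch for 2 others, as read from RefSeq promoter sequences of build GRCm38.p6. Capitals mark TGACG or its reverse complement CGTCA and, in Egr2, also the CArG box. Sequences are written 5′ to 3′ on the strand of the gene.
Fos (chr12:85473640-85473889, plus strand): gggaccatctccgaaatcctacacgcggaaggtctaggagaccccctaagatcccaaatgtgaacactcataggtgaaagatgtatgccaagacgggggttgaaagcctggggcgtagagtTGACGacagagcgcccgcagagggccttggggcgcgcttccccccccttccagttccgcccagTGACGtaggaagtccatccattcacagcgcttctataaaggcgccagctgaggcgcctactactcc
Junb (chr8:84978749-84978998, minus strand): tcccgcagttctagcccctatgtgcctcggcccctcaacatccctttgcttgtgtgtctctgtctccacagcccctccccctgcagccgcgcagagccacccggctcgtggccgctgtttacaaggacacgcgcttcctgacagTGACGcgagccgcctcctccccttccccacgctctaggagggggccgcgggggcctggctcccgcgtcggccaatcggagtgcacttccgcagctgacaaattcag
Nr4a1 (chr15:101266596-101266845, plus strand): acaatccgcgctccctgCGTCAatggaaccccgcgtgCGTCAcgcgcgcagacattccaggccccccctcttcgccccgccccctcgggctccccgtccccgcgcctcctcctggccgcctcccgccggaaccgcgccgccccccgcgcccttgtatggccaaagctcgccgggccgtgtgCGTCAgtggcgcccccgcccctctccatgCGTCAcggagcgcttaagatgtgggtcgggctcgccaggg
Egr2 (chr10:67537793-67537822, plus strand): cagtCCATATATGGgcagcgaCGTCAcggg
Fosb (chr7:19310080-19310109, minus strand): cgggTGACGcaagcgcgggggcgggtcccg
Of the 10 members, 7 were searched (Fos, Fosb, Junb, Egr2, Egr4, Npas4 and Nr4a1), Arc and Ier2 had no entry, and Egr1 was not searched. TGACG on either strand was present upstream of 7 of the 7, against 17.7% of 32817 RefSeq promoter stretches of the same length. A member counts here if any of its annotated starts held the letters, whereas the shares count single stretches. Fos held 2 copies, which began 129 and 66 bases upstream of the start, and its TATAAA lay 33 bases upstream. Nr4a1 held 4 copies, Egr4 and Npas4 held 2 each, and Junb and Fosb held 1 each. Egr2 has 5 annotated starts, of which 3 held TGACG and 4 the CArG box. The stretches of the 3 with TGACG overlap, and share the same TGACG sites and the same CArG box. The CArG box was found upstream of 1 member, Egr2, against 1.47% of all stretches, and the full palindrome TGACGTCA upstream of 0 members, against 1.55%. GCGGGGGCG, the letters that proteins of the Egr family bind, lay upstream of Fosb and Nr4a1 (2.57% of all stretches). None of these matches overlapped another. A match describes the letters in this window, and no binding was measured in these mice. Bases farther than 250 upstream were not searched, so that a member without a match here may hold one there.

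The deposited values are on a log2 scale with nearly equal array medians (5.51 to 5.58), so that 1 unit is a doubling in signal. A pair of entorhinal arrays stood apart by myelin genes, transgenic BDNF array 3 with a mean of 7.98 over 5 such genes and non-transgenic GFP array 2 with 8.05, against 8.80 to 9.73 on the other entorhinal arrays. Choroid plexus genes (5 measured) averaged 8.81 on hippocampal sham array 1, against 5.77 to 6.18 elsewhere in hippocampus. Values without these 3 arrays are given beside the differences that they moved most. Xist, expressed from the inactive X chromosome of females, was high on all 10 non-transgenic arrays and on 8 of the 16 transgenic arrays, so that sex, as read from Xist, was partly confounded with genotype. The labels call the replicates biological, and the number of arrays limits the precision of every comparison.

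All 10 members passed the filter on dim genes, each through its mean over all 26 arrays. Egr1, a zinc finger factor with a high resting level in cortex, had an array mean of 11.39, above 97.9% of all probe sets. Npas4, a factor induced in neurons by calcium entry, had a mean of 5.16, above 44.4% of probe sets, the lowest place among the members. Egr2, another zinc finger factor of the same family, was read by 2 probe sets with means of 5.69 and 5.52. Within each region the means of the 4 groups lay close together relative to their arrays. They spanned 0.14 (Nr4a1) to 0.98 (Npas4) in entorhinal cortex and 0.14 (Egr4) to 0.73 (Npas4) in hippocampus, for the brighter probe set of each gene. In the order of group means, the arrays of neighbouring groups overlapped except for Npas4 in entorhinal cortex and Ier2 in hippocampus.

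**Figure D1:**
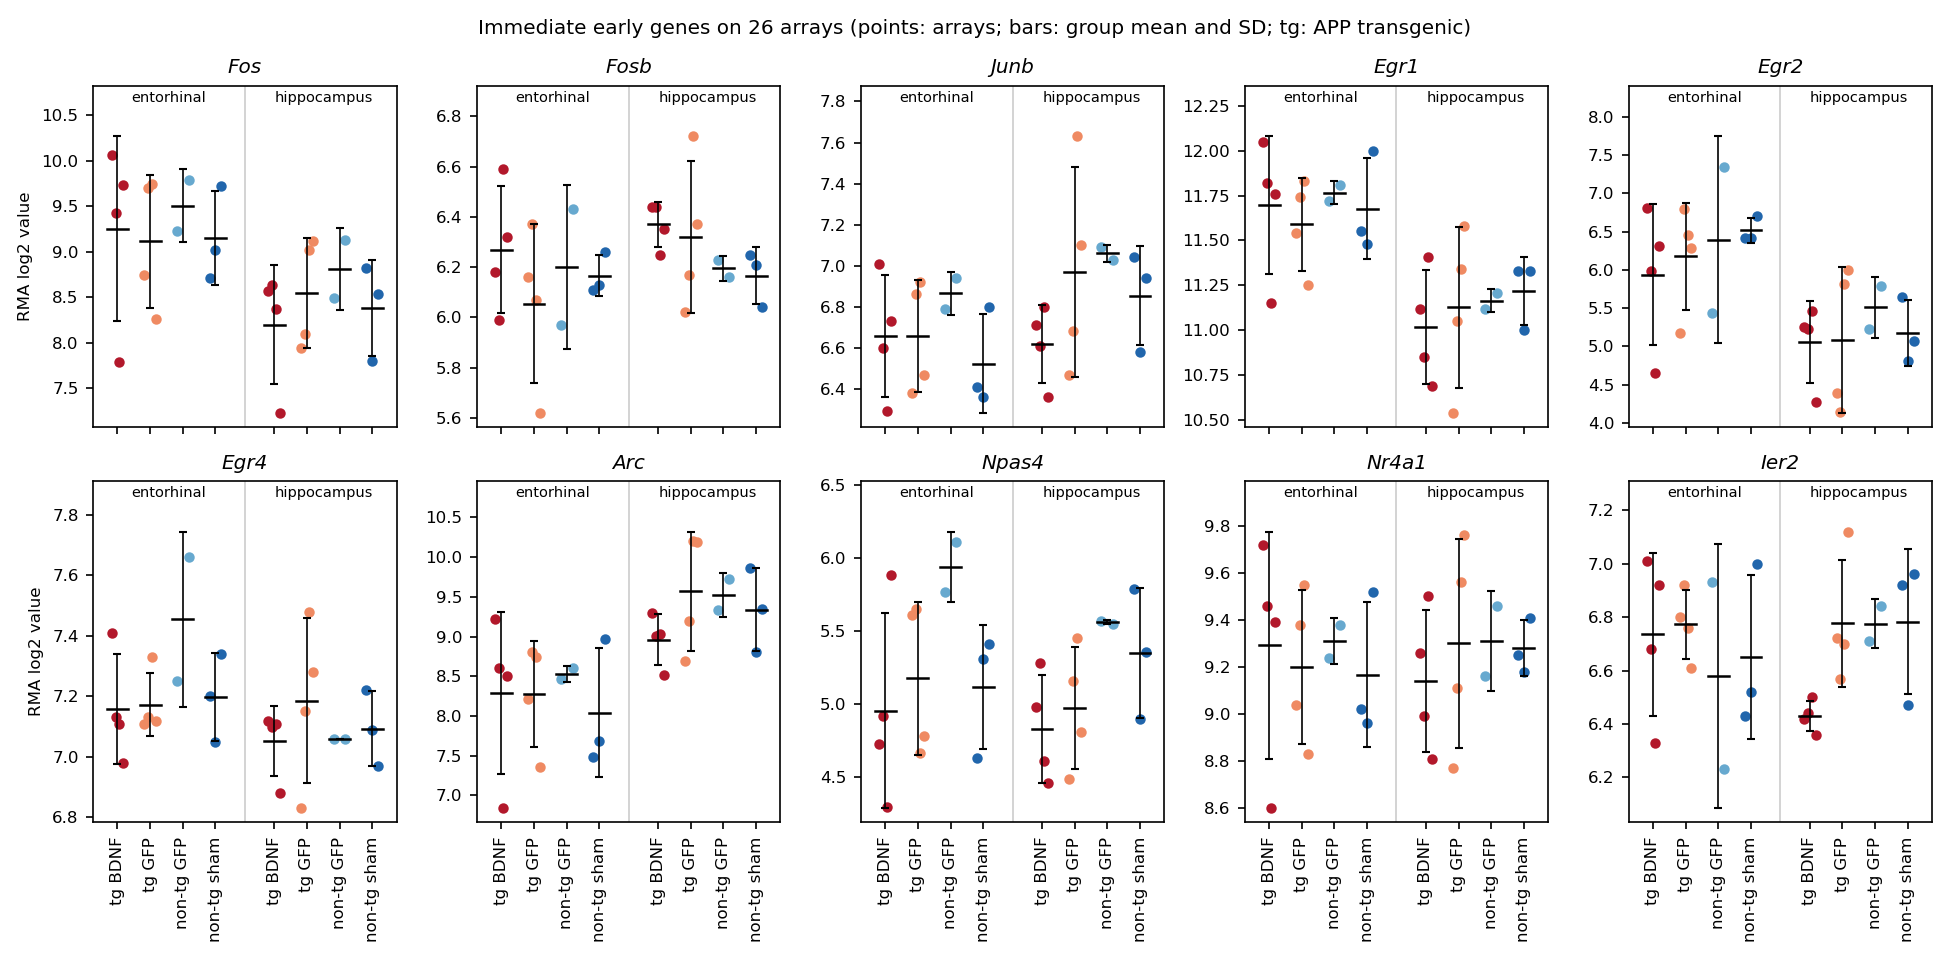
RMA log2 values of the 10 members (vertical axes, a separate scale for each gene) on the 26 arrays, by region, genotype and treatment, with Egr2 shown by its brighter probe set. Points are arrays, horizontal bars group means and error bars SDs: within most groups Fos, Arc and Egr2 spread over more than the distance between the group means, and Arc lay higher in hippocampus while Fos, Egr1 and Egr2 lay higher in entorhinal cortex.

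In entorhinal cortex, where the virus was given, none of the immediate early genes of transgenic mice differed between BDNF and GFP virus beyond the spread of the arrays. Limma, a linear model fitted across all genes, called 0 of 10 members at an adjusted p under 0.05, against 0% of all 14941 genes, and 0 members had an unadjusted p under 0.05, against 3.88% of all genes (580). Fos, a subunit of the AP-1 transcription factor, read 10.07, 9.43, 7.79 and 9.74 on the 4 BDNF arrays and 8.75, 9.70, 9.75 and 8.26 on the 4 GFP arrays. BDNF array 3 was the lowest of the 8 and BDNF array 1 the highest, so that the groups overlapped over their whole range. The log2 difference was 0.14 ± 0.47 (SE, n = 4 and 4) with a 95% interval of −0.89 to 1.18 (adjusted p = 0.999). In bulk tissue, a change in the number of cells that express a gene and a change in RNA per cell cannot be told apart. Arc, which encodes a cytoskeletal protein that controls AMPA receptor uptake at synapses, read 9.22, 8.60, 6.84 and 8.50 with BDNF and 8.21, 8.80, 8.74 and 7.36 with GFP. Again BDNF array 3 was lowest and BDNF array 1 highest, and the difference was 0.01 ± 0.49 with an interval of −1.06 to 1.08. These intervals include a difference of 1 log2 unit in either direction for Arc. The 10 members ranged between −0.24 (Egr2) and 0.22 (Fosb), with a median of 0.01, the same as the median of all genes, and 6 of 10 lay above 0, against 55.1% of all genes. BDNF array 3 is also the array with low myelin signal. Without the 3 arrays that stand apart, Fos read 0.63 and Arc 0.50 (adjusted p = 0.918 and 0.943), Nr4a1 0.33 and Egr1 0.29, and 0 members were called. Egr1 read 12.05, 11.82, 11.15 and 11.76 with BDNF and 11.54, 11.74, 11.83 and 11.25 with GFP, a difference of 0.10 ± 0.19. Egr2 read 6.81, 5.99, 4.65 and 6.31 with BDNF and 5.18, 6.80, 6.46 and 6.28 with GFP. For both genes BDNF array 3 was the lowest and BDNF array 1 the highest array of the 8. Among markers of other cells, 5 of 5 oligodendrocyte, 6 of 6 meningeal and 6 of 6 lymphocyte genes lay below 0 with BDNF, and 6 of 6 astrocyte and 6 of 6 endothelial genes above 0, with 0 called. Whether the makeup of the dissected tissue plays a part in the values of that array was not tested.

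In the hippocampus of the same treatment groups, 9 of 10 members lay below 0 with BDNF relative to GFP, against 54.5% of all genes, but none passed the test over all genes. Limma called 0 of 10 members and 0% of all genes, and 1 member, Ier2, had an unadjusted p under 0.05, against 5.31% of genes (793). Ier2, a nuclear protein of the early response with incompletely known function, read 6.42, 6.44, 6.50 and 6.36 on the BDNF arrays and 6.72, 6.57, 6.70 and 7.12 on the GFP arrays. All 4 BDNF arrays lay below all 4 GFP arrays, an arrangement found in this direction for 1.54% of all genes and in either direction for 2.64%. Its difference was −0.35 ± 0.12 with an interval of −0.61 to −0.08 (adjusted p = 0.901). Arc read 9.29, 9.01, 9.03 and 8.52 with BDNF and 8.69, 9.20, 10.20 and 10.19 with GFP. GFP arrays 3 and 4 were the highest for Arc in either group, while GFP arrays 1 and 2 lay within the range of the BDNF arrays. Its difference was −0.61 ± 0.32, with an interval of −1.31 to 0.09 (adjusted p = 0.901), and lay between −0.90 and −0.40 when each array in turn was left out. Junb, an AP-1 subunit that pairs with Fos, read 6.71, 6.61, 6.80 and 6.36 with BDNF and 6.47, 6.68, 7.63 and 7.10 with GFP, and GFP arrays 3 and 4 were again the highest. Its difference was −0.35 ± 0.20, and that of Fos −0.35 ± 0.35. Fosb, the AP-1 subunit known to persist after repeated stimulation as a shortened protein, was the exception at 0.05 ± 0.12. The median over the members was −0.15, against −0.01 over all genes, and since the members varied together from array to array they do not count as 10 separate observations. Oligodendrocyte genes lay on the same side as the members here: 5 of 5 were below 0 with a median of −0.37, and their mean level on an array ranged over 10.25 to 10.51 on BDNF arrays and 10.17 to 10.91 on GFP arrays. Microglial genes, of which 6 of 7 lay below 0, averaged 8.98 to 9.31 with BDNF and 9.07 to 9.71 with GFP. Lymphocyte genes, of which 5 of 6 lay below 0, averaged 5.47 to 6.27 with BDNF and 5.73 to 7.91 with GFP. The part of these cell types in the result was not tested.

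Of the other early response genes on 3 lists, 0 were called in the BDNF comparison in either region. Of 20 other early transcription factors, 12 lay above 0 in entorhinal cortex (median 0.04) and 7 in hippocampus (median −0.05). Their largest hippocampal values were Atf3, a stress-induced factor, at −0.28 ± 0.10 and Ier5 at −0.23 ± 0.10. Of 24 early effector genes, which encode secreted, synaptic or signalling proteins, 10 lay above 0 in entorhinal cortex (median −0.06) and 5 in hippocampus (median −0.09). Gadd45b, a stress response gene linked to DNA demethylation, read −0.28 ± 0.10 and the kinase phosphatase Dusp4 −0.25 ± 0.13 in hippocampus. Among upstream genes, which encode kinases, coactivators and transcription factors that switch early genes on, 7 of the 15 tested lay above 0 in entorhinal cortex and 9 in hippocampus. The CREB coactivator Crtc1 read −0.22 ± 0.09 in entorhinal cortex and −0.27 ± 0.10 in hippocampus (adjusted p = 0.998 and 0.901). The difference between the regions in the BDNF effect was tested directly. It lay above 0 for 8 of 10 members, with Arc at 0.62 ± 0.63 and Fos at 0.49 ± 0.63, against 57.6% of all genes above 0. Without the 3 arrays that stand apart, which were chosen after seeing the data, Arc read 1.11 and Fos 0.98, and all 10 members lay above 0. No share of all genes above 0 is given for that fit. The members varied together from array to array, so that they do not count as 10 separate observations. With all arrays, limma called 0 of 10 members for this difference, against 0% of all genes. Of the members 0 had an unadjusted p under 0.05, against 4.03% of all genes.

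The transgene comparison set transgenic GFP arrays against the 5 non-transgenic arrays of a region, and shares the transgenic GFP arrays with the BDNF comparison. Of the 5, 2 came from mice with GFP virus and 3 from mice with a sham lesion. Genotype is therefore partly mixed with treatment in what is called the transgene effect here. Neither region showed a called member. In entorhinal cortex, limma called 0 of 10 members, against 0.0134% of all genes, and the members ranged between −0.29 (Egr2) and 0.15 (Ier2), with a median of −0.12, against 0.01 over all genes. In hippocampus it called 0 of 10, against 0.0402% of all genes, with values between −0.46 (Npas4) and 0.16 (Arc) and a median of 0.00. Nr4a1, an orphan nuclear receptor induced by activity, read −0.02 ± 0.22 in entorhinal cortex and 0.01 ± 0.19 in hippocampus, and Egr1 read −0.12 ± 0.18 and −0.07 ± 0.19. The transgene effect did not pass a test of difference between the regions for any member (0 of 10, against 0% of all genes). Without the 3 arrays that stand apart, Egr2 read −0.07 in entorhinal cortex, and Npas4 −0.37 and Arc 0.27 in hippocampus. The fit with Xist as a covariate also called 0 members. Against the 2 non-transgenic GFP arrays alone, the median over the members was −0.21 in entorhinal cortex, against 0.01 over all genes. In hippocampus it was −0.02, against 0.03 over all genes.

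By group mean, Npas4 was highest in non-transgenic mice with GFP virus in both regions, but the difference was not called. Its probe set was dim, with a mean of 5.16, above 44.4% of probe sets. In entorhinal cortex it read 5.61, 5.65, 4.67 and 4.78 on the transgenic GFP arrays and 5.77 and 6.11 on the non-transgenic GFP arrays. In hippocampus it read 4.49, 5.16, 5.45 and 4.81 on the transgenic GFP arrays and 5.57 and 5.55 on the non-transgenic GFP arrays. In both regions the 2 non-transgenic arrays lay above all 4 transgenic arrays. This arrangement was found in this direction for 4.04% of all genes in entorhinal cortex and 2.07% in hippocampus. In either direction the shares were 10.2% and 8.23%, and Npas4 was the 1 member of 10 without overlap in each region. That share of the members is close to the share of all genes. The differences were −0.76 ± 0.41 in entorhinal cortex (adjusted p = 1) and −0.58 ± 0.28 in hippocampus (adjusted p = 0.988). In this comparison of GFP-treated mice, limma called 0 of 10 members in each region, against 0.0134% of genes in entorhinal cortex and 0.00669% in hippocampus. The sham arrays read 4.63, 5.31 and 5.41 in entorhinal cortex and 5.79, 4.90 and 5.36 in hippocampus, and overlapped the transgenic arrays. In hippocampus the highest Npas4 value was on sham array 1 (5.79), above both non-transgenic GFP arrays. Entorhinal non-transgenic GFP array 2, the highest for Npas4, is the array with low myelin signal, and without the 3 arrays that stand apart the entorhinal difference was −0.59 (adjusted p = 1).

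Transgenic mice with BDNF were also set against all non-transgenic arrays, which are the same arrays as in the transgene comparison. The BDNF arrays are those already compared with GFP virus, so that the results of these comparisons are not independent. In hippocampus limma called 0 of 10 members, against 0.0535% of all genes, although Ier2 (−0.35 ± 0.12, adjusted p = 0.664) and Npas4 (−0.60 ± 0.22, adjusted p = 0.687) had an unadjusted p under 0.05, against 6.6% of all genes. Of the 10 members, 9 lay below 0, against 49.8% of all genes, but they varied together and do not count as 10 separate observations. Ier2 read 6.71 and 6.84 on the non-transgenic GFP arrays and 6.92, 6.47 and 6.96 on the sham arrays. Its BDNF arrays, which reached 6.50, overlapped only sham array 2. In entorhinal cortex limma called 0 of 10, against 0.0402% of all genes, and the largest difference was that of Egr2 at −0.53 ± 0.47. Fos read −0.04 ± 0.45 and Arc 0.06 ± 0.47. The entorhinal values rest on the arrays that stand apart: without them Egr2 read 0.12 (adjusted p = 0.902), Npas4 −0.11 (0.919), Fos 0.57 (0.56) and Arc 0.63 (0.564), and 0 members were called.

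A single gene of the related lists was called in any within-region comparison. Klf2, a transcription factor best known in endothelial cells and lymphocytes, read −0.62 ± 0.09 in hippocampus of transgenic mice with BDNF (adjusted p = 0.0326, 1 of 20 other early transcription factors). Its log2 difference stayed between −0.69 and −0.55 over 22 alternatives, while its adjusted p lay between 0.00563 and 0.193 and 8 of the alternatives called it. The fit with Xist as a covariate gave −0.63 with an adjusted p of 0.109. The call was lost when any single array of the comparison was left out. Endothelial markers (6 of 6 below 0, median −0.14) averaged 7.42 to 7.59 on the hippocampal BDNF arrays and 7.60 to 7.80 on the non-transgenic arrays, with no overlap. Meningeal markers (5 of 6 below 0, median −0.41) averaged 7.38 to 7.59 with BDNF and 7.62 to 7.87 on the non-transgenic arrays, also with no overlap. Of all genes taken singly, 3.02% showed no overlap in this comparison, counting either direction. Lymphocyte markers (6 of 6 below 0, median −0.11) averaged 5.47 to 6.27 on the BDNF arrays and 5.24 to 7.77 on the non-transgenic arrays, and 5 of 5 oligodendrocyte markers lay below 0 (median −0.26). None of these markers was called, and their part in the values of Klf2 and of the members was not tested.

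GFP virus was compared with the sham lesion in non-transgenic mice, 2 arrays against 3 in each region. Limma called 0 of 10 members in entorhinal cortex, against 0.0201% of all genes, and 0 of 10 in hippocampus, against 0.0335%. Npas4 in entorhinal cortex had the largest difference, 0.82 ± 0.43, with both GFP arrays above the 3 sham arrays. This held for 9.39% of all genes in this small comparison. In either direction 19.2% of all genes did not overlap, against 1 of 10 members. In hippocampus Npas4 read 0.21 ± 0.30, Fos 0.42 ± 0.46 and Arc 0.18 ± 0.42. The members lay above 0 for 8 of 10 genes in entorhinal cortex (median 0.20) and for 7 of 10 in hippocampus (median 0.11), against 49.9% and 38.3% of all genes. Since the members varied together from array to array, they do not count as 10 separate observations. The intervals were wide, for example −0.90 to 1.87 for Arc in entorhinal cortex. The difference of this effect between the regions called 0 of 10 members and 0% of all genes. Without the 3 arrays that stand apart, 1 entorhinal GFP array remained, which the fit takes to vary like the other groups. Npas4 then read 0.65 (adjusted p = 0.836) and Egr2 had the largest difference, −1.08 (0.636), against −0.12 ± 0.64 with them. In hippocampus, without sham array 1, Fos read 0.64, Egr2 0.57, Arc 0.44 and Npas4 0.43 (lowest adjusted p = 0.725). Lymphocyte markers (6 of 6 above 0, none called) had a mean level of 5.88 and 8.09 on the entorhinal GFP arrays against 5.35 to 5.53 on the sham arrays. In hippocampus (5 of 6 above 0, median 0.54, none called, lowest adjusted p = 0.24) they averaged 7.67 and 7.77 on the GFP arrays against 5.24 to 5.52 on the sham arrays. The groups did not overlap in either region. Of all genes taken singly, 19.2% in entorhinal cortex and 29% in hippocampus showed no overlap, counting either direction. The part of these markers in the values of the members was not tested.

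**Figure D2:**
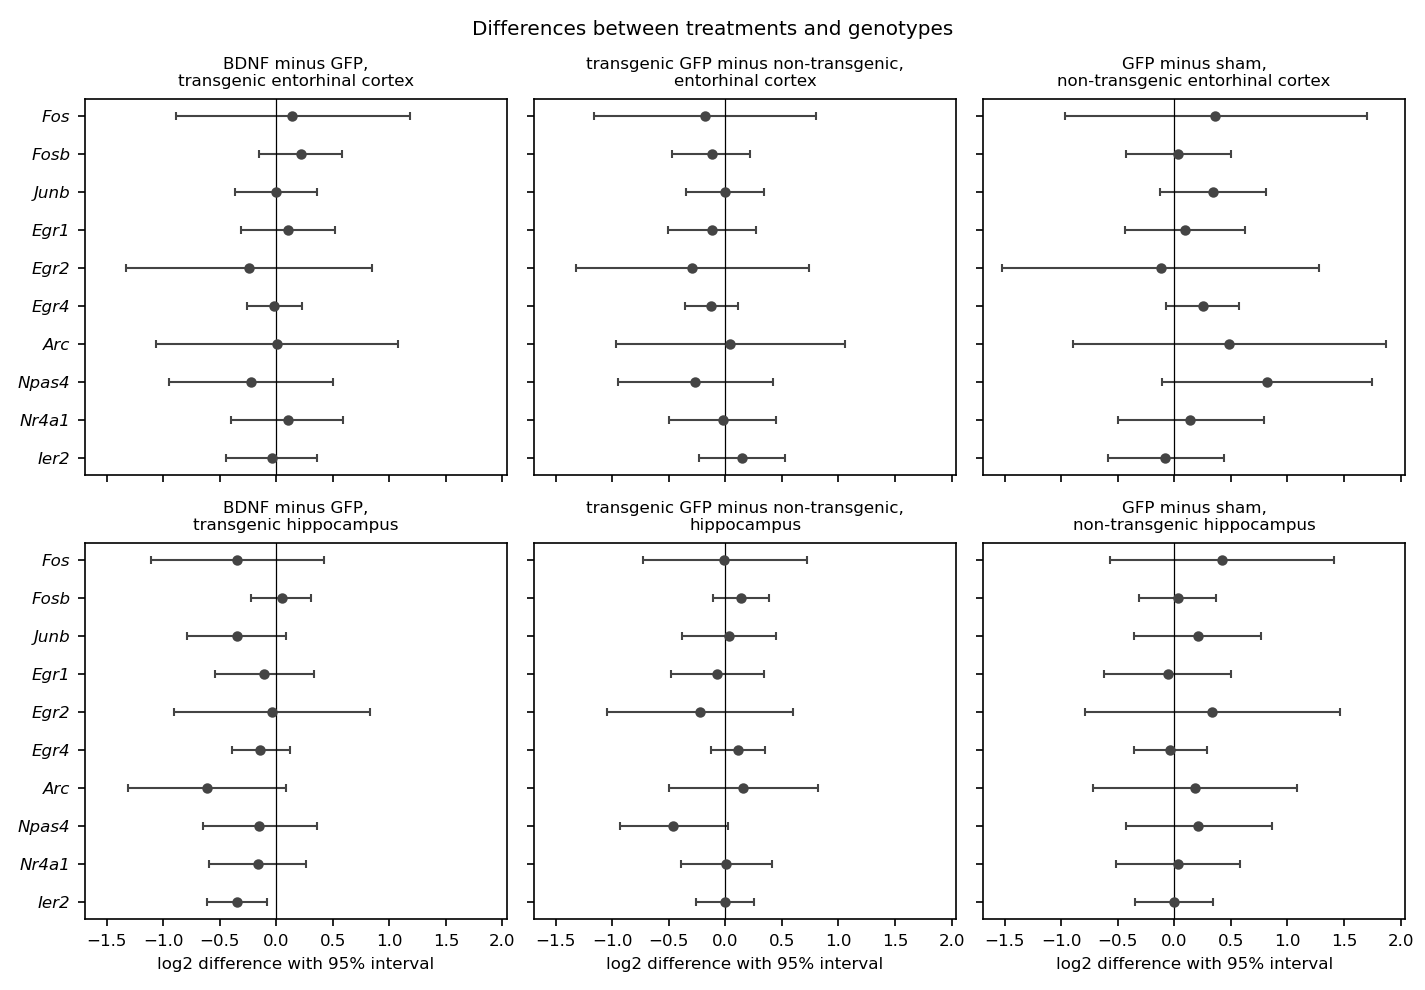
Log2 differences of the 10 members (horizontal axis, points) for BDNF minus GFP in transgenic mice, transgenic GFP minus all non-transgenic arrays and GFP minus sham in non-transgenic mice, with 95% intervals (bars), in entorhinal cortex (upper panels) and hippocampus (lower panels). Among these plotted intervals, only that of Ier2 for BDNF minus GFP in hippocampus excludes 0 (−0.61 to −0.08), and no member was called after adjustment over all genes.

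Between the regions, 4 of the 10 members differed, and they did not differ in the same direction. Fos, Egr1 and Egr2 were higher in entorhinal cortex, and Arc was lower in entorhinal cortex. Limma called 51.8% of all genes between these tissues, 20.6% higher and 31.3% lower in entorhinal cortex, so that 4 of 10 members is a share below that of all genes. Fos read 7.79 at the lowest, 9.43 at the median and 10.07 at the highest on the 13 entorhinal arrays, against 7.23, 8.54 and 9.13 on the 13 hippocampal arrays. On 8 of the entorhinal arrays Fos lay above every hippocampal array, and its difference averaged over the 4 groups was 0.77 ± 0.26 (1.71-fold, adjusted p = 0.0156). Without hippocampal non-transgenic GFP array 1 it was 0.69 with an adjusted p of 0.0519. Egr1 read 11.15, 11.74 and 12.05 at the lowest, median and highest in entorhinal cortex, against 10.54, 11.12 and 11.58 in hippocampus. Its difference of 0.55 ± 0.12 (1.46-fold, adjusted p = 0.000528) was the most precise of the 4. Egr2 read 4.65, 6.42 and 7.35 in entorhinal cortex, against 4.14, 5.23 and 6.0 in hippocampus, with 9 entorhinal arrays above every hippocampal array. Its difference was 1.05 ± 0.28 (2.07-fold, adjusted p = 0.00314), and the other probe set of Egr2 gave 1.05 ± 0.24 (adjusted p = 0.000897).

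Arc ran the other way. It read 6.84, 8.50 and 9.22 at the lowest, median and highest on the entorhinal arrays, against 8.52, 9.29 and 10.20 on the hippocampal arrays. On 7 entorhinal arrays it lay below every hippocampal array, and on 7 hippocampal arrays above every entorhinal array. Its difference was −1.06 ± 0.26 (0.478-fold, adjusted p = 0.00133). The direction was the same in all 4 groups for each of the called members. Over the 4 groups the difference lay between 0.56 and 1.05 for Fos, between 0.46 and 0.68 for Egr1, between 0.89 and 1.34 for Egr2 and between −1.3 and −0.67 for Arc. Without the 3 arrays that stand apart the differences were 0.88 for Fos, 0.60 for Egr1, 0.98 for Egr2 and −0.90 for Arc, and each stayed called (highest adjusted p = 0.00607). For 0 of 10 members did the 13 arrays of the regions separate fully, against 10.6% of all genes.

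The other 6 members were not called between regions. Egr4, the remaining zinc finger factor, read 0.15 ± 0.07 (interval 0.01 to 0.29, adjusted p = 0.0763). Junb read −0.20 ± 0.11 (adjusted p = 0.149), Fosb −0.09 ± 0.09 and Npas4 0.12 ± 0.18. Nr4a1 read −0.01 ± 0.13, with an interval of −0.29 to 0.26, and Ier2 −0.01 ± 0.09, with an interval of −0.20 to 0.19. The intervals of Nr4a1 and Ier2 do not reach the differences measured for Fos or Arc.

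**Figure D3:**
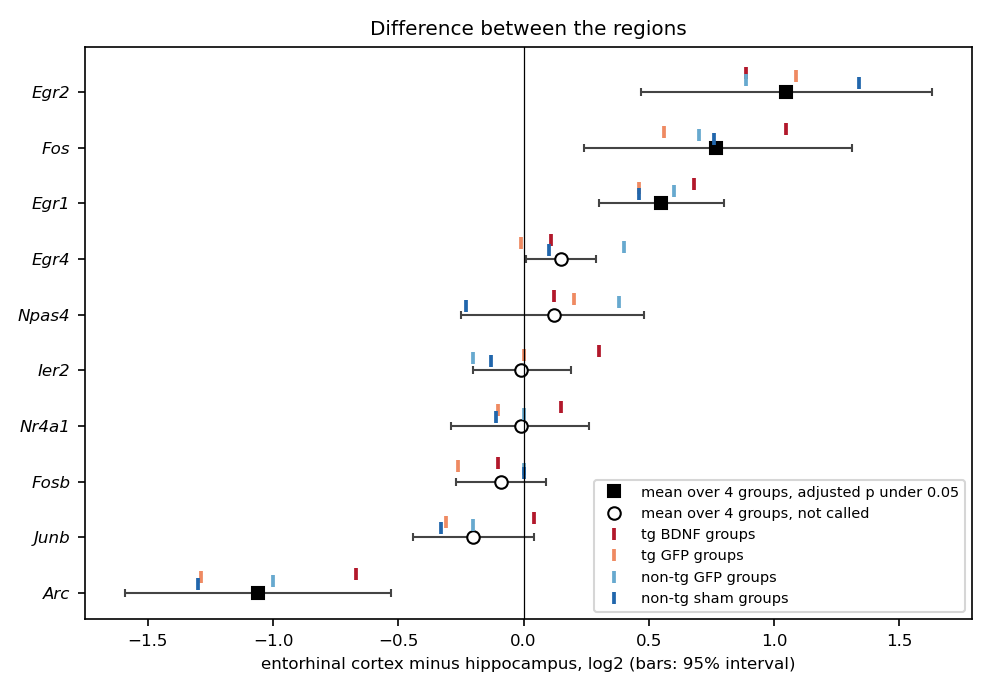
Entorhinal minus hippocampal log2 value of the 10 members (horizontal axis), as the mean over the 4 groups with its 95% interval and, as coloured ticks, within each group. Filled squares mark the 4 members called (Egr2 1.05, Fos 0.77, Egr1 0.55 and Arc −1.06), whose 4 ticks all lie on the same side of 0.

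The opposite regional differences of Fos and Arc were looked at on single arrays after their values had been seen. The difference between the Fos and Arc probe sets on an array depends on the probes and has no meaning at 0, whereas its shift between regions does not depend on that offset. Fos minus Arc lay between 0.53 and 1.34 on the 13 entorhinal arrays (median 0.90), against −1.29 to −0.38 on the 13 hippocampal arrays (median −0.84). No entorhinal value reached a hippocampal one, although the arrays of each gene alone overlapped between regions. The pair was picked because the genes were called in opposite directions, and 41.5% of all 14363325 pairs of a gene called higher and a gene called lower separated the regions in the same way, so that nothing particular to Fos and Arc is read from it. Paired with Arc, each of the 3 members called higher did so. Within regions the groups overlapped. In entorhinal cortex the means were 0.96 for transgenic BDNF, 0.84 for transgenic GFP, 0.99 for non-transgenic GFP and 1.11 for sham. In hippocampus they were −0.76 for transgenic BDNF, −1.02 for transgenic GFP, −0.71 for non-transgenic GFP and −0.95 for sham.

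**Figure D4:**
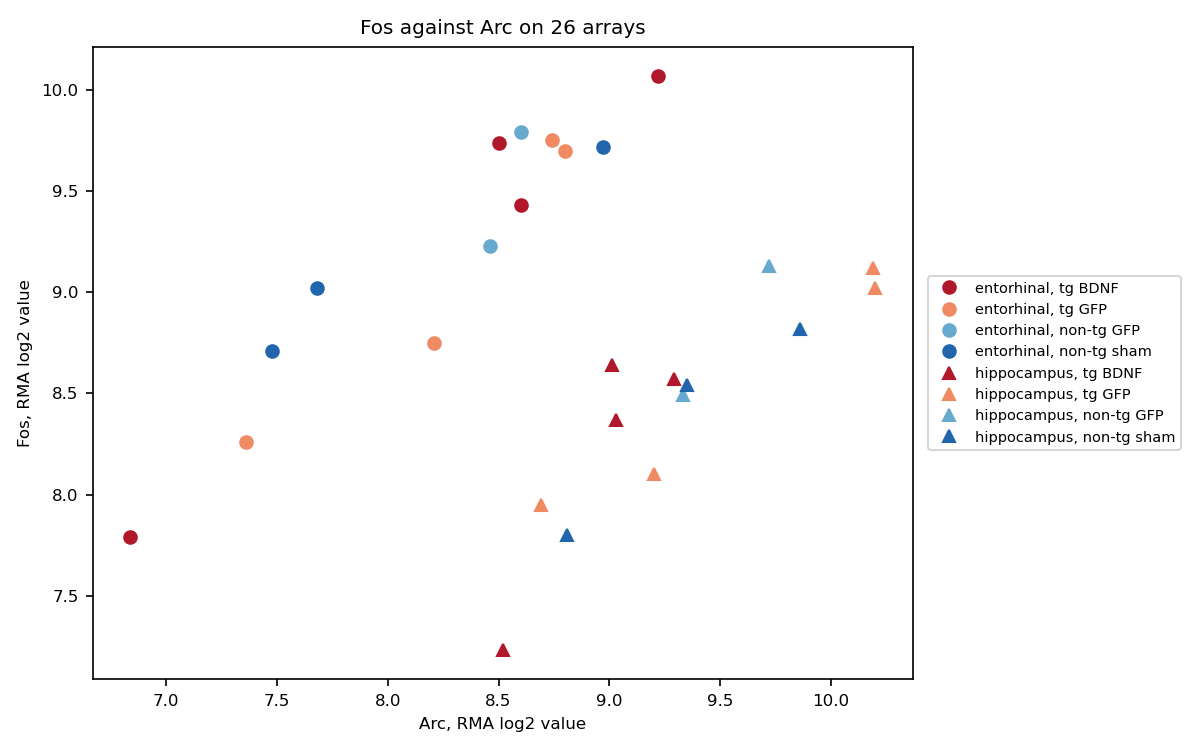
RMA log2 value of Fos (vertical axis) against that of Arc (horizontal axis) on the 26 arrays, circles for entorhinal cortex and triangles for hippocampus, coloured by group. Within each region the arrays run upward together, and the hippocampal arrays are shifted to higher Arc and lower Fos, with all 4 groups mixed in both regions.

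Related gene lists showed the same kind of mixture between regions. Of 20 other early transcription factors, 4 were called higher and 6 lower in entorhinal cortex, led by Klf6 (1.40 ± 0.11) and Nr4a2 (1.32 ± 0.12) on the higher side and Nr4a3 (−1.07 ± 0.09) on the lower side, so that relatives of Nr4a1 differed in opposite directions. Of 24 early effector genes, 5 were called higher and 10 lower, among them the prostaglandin synthase Ptgs2 (−1.78 ± 0.19), the secretory protein gene Scg2 (−1.03 ± 0.04), the pentraxin Nptx1 (−1.03 ± 0.09) and Bdnf itself (−0.87 ± 0.11). Of 15 upstream genes, 5 were called higher and 7 lower. Mef2c, an activity-regulated transcription factor of cortical neurons, read 1.77 ± 0.05 and Camk4, a nuclear calcium-dependent kinase, 0.72 ± 0.12. Crtc1 read −0.80 ± 0.06 and Elk1, a partner of the serum response factor, −0.68 ± 0.06. Each list's calls stand beside 20.6% and 31.3% of all genes called higher and lower.

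The dissections matched their labels by markers. Of 7 genes of hippocampal principal cells, 6 were called lower in entorhinal cortex (Dsp −4.76 ± 0.17, Spink8 −3.31 ± 0.15), and of 7 genes of cortical layers, 5 were called higher (Ccn2 3.12 ± 0.18, Cux2 2.01 ± 0.09). The regions also differed in other cells. Oligodendrocyte genes were called lower in entorhinal cortex for 5 of 5, with array means of 7.98 to 9.73 there and 10.17 to 10.91 in hippocampus. Neuronal genes were called higher for 1 and lower for 5 of 8, with array means of 11.42 to 11.58 in entorhinal cortex and 11.70 to 12.09 in hippocampus. The part of cell makeup in the regional differences of the members was not tested.

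Fos, Arc, Egr2 and Npas4 were among the most variable genes between arrays of the same group, and the other members varied less. After subtraction of group means, the residual SD of Fos was 0.77 in entorhinal cortex and 0.59 in hippocampus, above 99.3% and 99.2% of all genes, whose median was 0.142 and 0.127. Arc lay above 99.4% and 98.9% of genes, Egr2 above 99.4% in both regions and Npas4 above 98.2% and 97.7%. Nr4a1, Egr1 and Junb were intermediate, with Nr4a1 above 95.3% and 96%. Egr4 was the steadiest member, above 64% of genes in entorhinal cortex and 79.6% in hippocampus. From the lowest to the highest of 13 arrays, the signal spanned 6.51-fold for Egr2, 5.21-fold for Arc and 4.85-fold for Fos in entorhinal cortex, and 3.64-fold for Egr2, 3.21-fold for Arc and 3.73-fold for Fos in hippocampus.

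This variation was shared among members. Deviations from the group means were correlated over the 13 arrays of a region for each of the 45 pairs, with exact permutation of arrays within groups (6912 arrangements, smallest possible p = 0.000145, 2-sided) and adjustment over all 90 tests. Pearson's r was above 0 for 41 of 45 pairs in entorhinal cortex (median 0.54) and for 44 of 45 in hippocampus (median 0.71). By this exact permutation test 14 pairs were called in entorhinal cortex and 11 in hippocampus, and with Spearman's rho 15 and 12. No share of all gene pairs is set beside these counts, so that nothing particular to the members is read from them. Egr1 and Nr4a1, both bright on these arrays, had r = 0.99 and rho = 0.99 in entorhinal cortex and r = 0.96 and rho = 0.92 in hippocampus (exact permutation p = 0.000145, adjusted p = 0.00651 in each). Without the 2 arrays farthest from the median of Egr1, r was 0.98 and 0.92.

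Fos and Arc, which differed between regions in opposite directions, varied together within each of them. Their r was 0.95 (rho 0.94) in entorhinal cortex and 0.90 (rho 0.92) in hippocampus, with exact permutation p = 0.000579 and 0.00116 (adjusted p = 0.013 in both). For rho the exact permutation p was 0.000723 and 0.00174 (adjusted p = 0.0163 and 0.0174), and r without the 2 farthest arrays was 0.88 and 0.92. Entorhinal BDNF array 3 deviated from its group mean by −1.46 for Fos and −1.45 for Arc. Fos and its AP-1 partner Junb had r = 0.92 and rho = 0.94 in entorhinal cortex (adjusted exact permutation p = 0.0143 and 0.0195). In hippocampus their r was 0.76 and rho 0.75 (adjusted exact permutation p = 0.049 and 0.0959). Fos and Egr2 had r = 0.76 and rho = 0.77 in entorhinal cortex (adjusted exact permutation p = 0.049 and 0.0214), against r = 0.91 and rho = 0.89 in hippocampus (0.022 and 0.0339). Npas4 had r = 0.48 and 0.67 with Fos and 0.46 and 0.66 with Arc, and none of its correlations was called in the exact permutation test in either region. Whether a pair differed between regions was not tested.

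Fosb stood apart in entorhinal cortex, where its r with the 9 other members lay between −0.18 and 0.28, while in hippocampus it lay between −0.01 and 0.85. Its r with the mean of the other members was 0.08 in entorhinal cortex and 0.63 in hippocampus. The entorhinal value rests on the arrays that stand apart, since it was 0.64 without them (n = 10), and the r of Fosb with Fos was 0.1 with them and 0.72 without. BDNF array 3, with the lowest Fos, Arc and Egr1 among entorhinal arrays, had the highest Fosb, 6.59. Over all pairs the median r without these arrays was 0.65 in entorhinal cortex (n = 10) and 0.68 in hippocampus (n = 12). Leaving out each array in turn gave medians of 0.47 to 0.63 in entorhinal cortex and 0.66 to 0.74 in hippocampus.

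**Figure D5:**
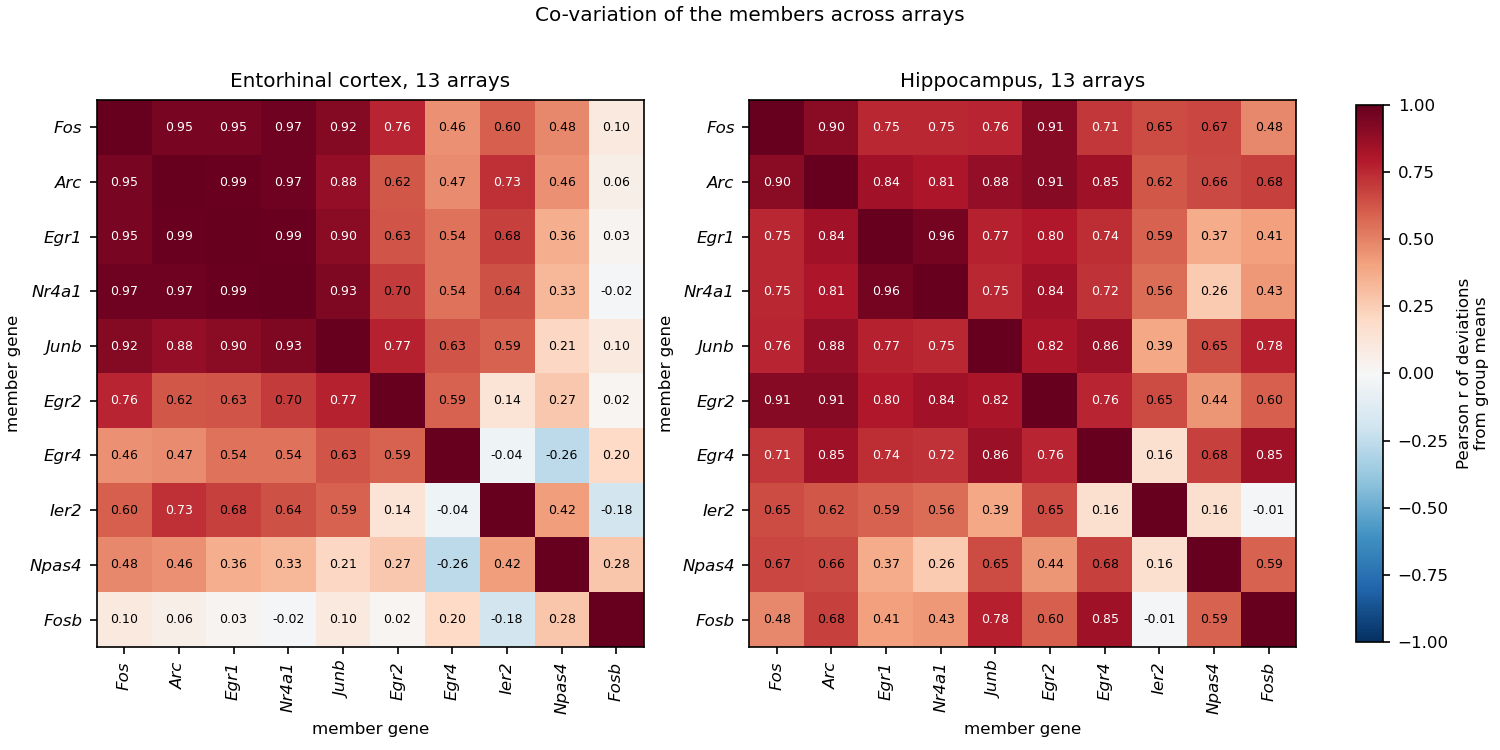
Pearson r between members (both axes) of deviations from group means, over the 13 arrays of entorhinal cortex (left) and of hippocampus (right), with the colour scale running between −1 and 1. Fos, Arc, Egr1, Nr4a1 and Junb form a block of r from 0.88 to 0.99 in entorhinal cortex and from 0.75 to 0.96 in hippocampus, and Fosb is near 0 with most members in entorhinal cortex.

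Among all other genes, those most like the members across arrays were ranked by the lower of the 2 regional correlations with the members' mean standardized deviation. These values are a description over 13 arrays per region, which share the RNA of each array. Dusp6, a phosphatase induced by and acting on the ERK kinases, came highest (0.83 in entorhinal cortex, 0.90 in hippocampus), followed by the peptide-amidating enzyme Pam (0.86 and 0.80). The next were 4932431P20Rik (lower r 0.73), Bhlhe40 (0.73), Ahdc1 (0.73), Rhot2 (0.72), Mt3 (0.71), Cdip1 (0.70), Sema5b (0.70) and Btbd19 (0.69). Bhlhe40 is an activity-induced transcription factor and Mt3 a metallothionein of the brain. The order below the leading genes was loose, since 3 of these 10 stayed among the 10 highest without the 3 arrays that stand apart, and 3 to 9 when each array in turn was left out. Dusp6 and Pam still had a lower r of 0.77 each without the 3 arrays.

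Of the 20 other early transcription factors, 16 correlated above 0 with the members in entorhinal cortex and 12 in hippocampus (median r 0.38 and 0.22, against −0.05 and −0.11 over all genes). Jund (0.65 in entorhinal cortex and 0.68 in hippocampus) and the clock gene Per1 (0.71 and 0.61) were high in both regions, while Nr4a3 reached 0.85 in entorhinal cortex and −0.10 in hippocampus and Atf3 −0.09 and 0.77. The 24 effector genes had medians of 0.20 and −0.02 and the 15 upstream genes 0.05 and −0.24. Mean levels of marker genes were set against Arc and Fos, again over 13 arrays per region as a description. The mean of oligodendrocyte genes had r = 0.63 with Arc in entorhinal cortex and 0.73 in hippocampus (0.52 and 0.72 without the 3 arrays), and 0.48 and 0.51 with Fos (0.25 and 0.48 without them). The mean of lymphocyte genes had r = −0.23 and −0.74 with Arc (−0.56 and −0.76 without them), and −0.30 and −0.59 with Fos (−0.57 and −0.59). For meningeal genes r with Arc was 0.22 and −0.60 (−0.25 and −0.73), so that the entorhinal sign rests on the arrays that stand apart. For neuronal genes r was 0.40 and 0.21 with Arc (0.02 and 0.37) and 0.47 and −0.05 with Fos (0.01 and 0.04). Cortical layer genes had r = 0.60 and 0.20 with Arc (0.57 and 0.38) and 0.44 and 0.43 with Fos (0.37 and 0.59). GABAergic interneuron genes had r = 0.51 and −0.12 with Arc (0.37 and 0.12) and 0.34 and 0.03 with Fos (0.14 and 0.24). The part of these cells in the shared variation of the members was not tested.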

How the data were processed

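Expression was measured on 26 Affymetrix mouse arrays of entorhinal cortex and hippocampus. The deposited values are log2 signals per probe set, made by the authors with RMA (background correction, quantile normalization and probe summary), per the submitters' processing notes, which give no version. Samples were grouped by region, genotype and treatment from the labels, and no array was left out of the main fits. Probe sets were named from the platform annotation (34958 of 45101 had 1 symbol, 932 several and 9211 none). Of several probe sets of a gene the brightest on average was used, and genes under the 30th percentile of means (4.33) were left out, which left 14941.

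Groups were compared by moderated 2-sided tests in limma (version 3.58.1, R version 4.3.3), with the 13 arrays of a region in 1 fit, or all 26 for comparisons across regions. P-values were adjusted over all genes tested by the Benjamini-Hochberg method. The fits were tested on simulated data. The text names all members, up to 4 called genes of each list by size of change (the 2 largest where none was called), and the 10 genes most like the members across arrays. Likeness was the Pearson correlation with the mean of the members' deviations from group means, each divided by its SD. The members, gene lists and marker lists were chosen with earlier results of these data known. Alternatives covered normalization, filter, probe set choice, array weights, arrays in the fit, a replicate block, Xist as a covariate and single arrays left out.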

Additional observations from a re-analysis of the deposited data

Results flagged for a closer look

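In 44 groups of 4 arrays, 3 values lay farther from the nearest of the other 3 arrays than Dixon's 95% criterion allows, where chance flags about 1 group in 20. Egr4 in hippocampus of transgenic mice with BDNF read 6.88 on array 4, against 7.10 to 7.12 on the other 3 arrays. On the same array the dimmer of the 2 probe sets of Egr2 read 4.07, against 5.24 to 5.35 on the others, and Fos read 7.23, its lowest value in hippocampus. Egr4 in entorhinal cortex of transgenic mice with GFP read 7.33 on array 3, against 7.11 to 7.13 on the other 3 arrays.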

How the results depend on the processing

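Over 1616 values of member changes under alternatives that kept all arrays, 1613 kept their side of the threshold and 3 were called in addition, all for Egr4 between regions: 0.18 after a further quantile normalization, 0.16 after median centring and 0.15 with array weights (adjusted p = 0.0418, 0.049 and 0.0437). Leaving out 1 array changed 3 of 1440 calls: Fos between regions was lost without hippocampal non-transgenic GFP array 1, and Egr4 was called without entorhinal non-transgenic GFP array 1 (0.20) or hippocampal transgenic GFP array 3 (0.17). No called change turned its sign. Uncalled changes turned theirs in 55 of the 1616 values, in 201 of 1440 without 1 array and in 30 of 120 without the 3 arrays that stand apart, so that counts of members above or below 0 rest in part on signs that can turn. Members called stayed at 0 of 10 in every other comparison, and between regions lay between 3 and 5 without 1 array.

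Same-numbered arrays were not shown to pair: their deviations correlated between −0.49 and 0.48 across regions (over 0.1 in 3 of 13) and between −0.25 and 0.39 within a region (8 of 32). In a group of 2 arrays the deviations mirror each other, so that both non-transgenic GFP numbers gave the same r across regions (0.47). Of the 13 numbers, 6 differed in Xist class across regions, and all 6 were transgenic. Non-transgenic numbers could not differ, since Xist was high on all of their arrays. Read by Xist, those 6 numbers do not each mark a single animal. With the replicate number as a block, limma called 4 of 10 members between regions and 0 in the others, and it moved the count of all genes called for transgenic GFP against non-transgenic GFP in entorhinal cortex to 1 (main 2), for transgenic BDNF against non-transgenic to 3 in entorhinal cortex (main 6) and 1 in hippocampus (main 8), and for transgenic GFP against all non-transgenic in hippocampus to 1 (main 6).

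Other counts over all genes that moved by more than 1.5 times were these. For transgenic GFP against all non-transgenic, entorhinal cortex gave 5 with array weights and 5 with all 26 arrays in 1 fit (main 2), and hippocampus 3 with only the groups compared and 3 with Xist as a covariate. For transgenic BDNF against all non-transgenic, entorhinal cortex gave 3 with only the groups compared, 22 with all 26 arrays and 3 with Xist. Hippocampus gave 4 with all probe sets, 5 with the mean of probe sets, 14 with array weights, 1 with Xist and 2 without the 3 arrays that stand apart, an alternative chosen after seeing the data. For GFP against sham, entorhinal cortex (main 3) gave 1 with the mean of probe sets and 0 with only the groups compared, and hippocampus (main 5) gave 3 with the mean, 8 with array weights, 21 with only the groups compared and 8 with all 26 arrays. For transgenic against non-transgenic GFP in hippocampus (main 1), all probe sets, the mean and only the groups compared gave 2 each, and all 26 arrays gave 3. Between regions, all probe sets gave 13904 calls (main 7746), since more features were tested. The causes of the other shifts were not tested.

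Without 1 array, genes called stayed at 0 for BDNF against GFP in both regions and for the regional differences of the BDNF and GFP effects. In entorhinal cortex they lay between 1 and 2 for transgenic against non-transgenic GFP, 2 and 4 for transgenic GFP and 2 and 10 for transgenic BDNF against all non-transgenic, and 0 and 1 for GFP against sham. In hippocampus these ranges were, in that order, 1 to 5, 1 to 10, 1 to 6 and 2 to 10. Between regions they were 7067 to 7949, and 0 to 1 for the regional difference of the transgene effect. Of the 10 genes most like the members, 3 stayed without the 3 arrays and 3 to 9 without 1 array. The median correlation between members lay between 0.47 and 0.63 in entorhinal cortex and between 0.66 and 0.74 in hippocampus. Klf2 in hippocampus of transgenic BDNF mice had an adjusted p of 0.09 with the block and lost its call without each single array. Probe sets near background, such as that of Npas4, and groups of 2 to 4 arrays limit what could be detected.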
